A study of Mus musculus with 12 samples.

Results

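The regions described here are 1 kb stretches of the mouse autosomes that carried little DNA methylation in early-passage embryonic stem cells (ESCs) and much of it in embryos. Each chromosome from 1 to 19 was divided into tiles of 1 kb, and only cytosines with a methylation value in early ESC, early ahESC and the 3 E15.5 embryos were kept. A tile needed 5 or more such cytosines, and it was a member where its mean was 20% or less in both stem cell libraries and 60% or more in all 3 embryos. Of 130145 tiles, 25 met the rule (0.0192%). No tile had the inverse pattern of 60% or more in both stem cell libraries and 20% or less in all 3 embryos.

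The study profiled 12 libraries by reduced representation bisulfite sequencing (RRBS), in which MspI cuts DNA at CCGG and unmethylated cytosines are converted before sequencing. The 6 stem cell libraries were diploid ESC, ahESC (androgenetic haploid ESCs, whose single genome comes from sperm) and phESC (parthenogenetic haploid ESCs, whose single genome comes from an oocyte), each at early and late passage and all labelled WT. The tissues were a whole WT embryo, a whole bimaternal (BM) embryo and a whole bipaternal (BP) embryo at E15.5, a BM brain at E19.5, and adult brains of BM and WT animals. BM embryos were made by injecting a phESC into an oocyte, BP embryos from a sperm and an ahESC placed together in an oocyte without a nucleus, and all BM and BP samples carried DMR-KO, a deletion of differentially methylated regions that the labels used here do not name. The WT embryo came from a zygote of normal sperm and oocyte. Each group is 1 library, so no difference below has a replicate check or a test, an SD is over regions and not over animals, and a whole embryo or brain mixes many cell types. The labels used here do not say whether the stem cell lines measured gave rise to the embryos measured. The libraries had a value at between 3773871 and 5903648 listed positions, and the reads behind each value are unknown, so no interval for counting error can be given.

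In mammals, DNA methyltransferases place methyl groups on cytosines of CpG dinucleotides, and the pattern is copied when DNA replicates. Methylation is low in the blastocyst, from which ESCs are derived, and rises after implantation. In somatic tissues, gene bodies, processed pseudogenes and repeats are usually methylated, while most CpG islands at gene starts are not. Starts of some germline genes, which are silent outside the germline, are a known exception.

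The 25 regions held 282 kept cytosines, between 5 and 29 a region, which spanned 13 to 223 bp (median 53 bp). The deposited table lists cytosines of CpG and also cytosines of GC, so a tile mean mixes sites that can be methylated with others that are hardly ever methylated. In the members, 205 of the 282 were at 60% or more in all 3 embryos, 77 were at 20% or less in all 3, and none lay between. The sequence context was known for 170 of them. All 117 CpG cytosines were in the high class, 17 of these in CCGG, and all 53 cytosines outside CpG were in the low class. Kept cytosines that reach 20% in any of the embryos are called embryo-methylated below. In the members these are the same 205, and levels are means over them unless a tile mean is named.

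**Figure D1:**
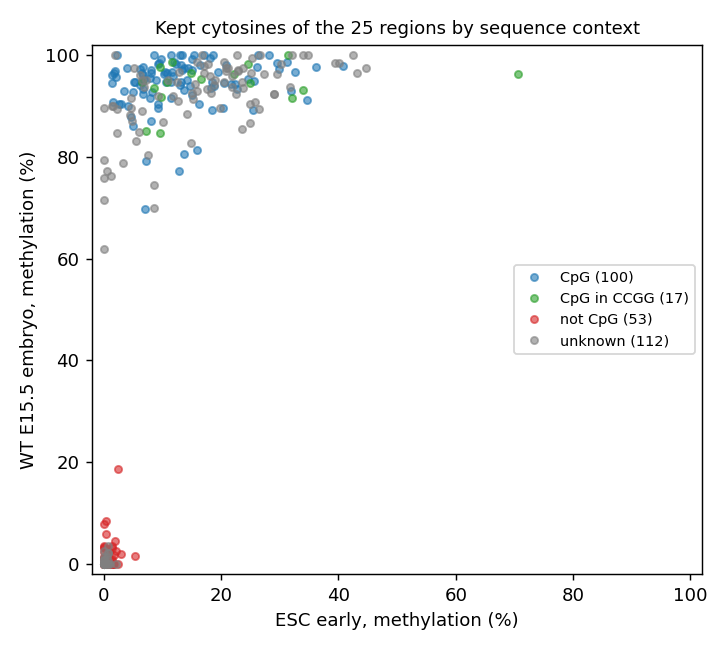
Each point is 1 kept cytosine of the 25 regions, with its methylation in early ESC on the x axis and in the WT E15.5 embryo on the y axis, both in percent, coloured by sequence context. The 117 CpG cytosines lie at the top, the 53 cytosines outside CpG at the bottom left, and the 112 of unknown context fall into both groups.

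To show what was measured, the stretches that hold the kept cytosines are printed for members in exons without an annotated untranslated region there, and for 2 processed pseudogenes. The sequences are GENCODE M21 exons placed on mm9 by their pattern of listed positions. They read 5′ to 3′ on the strand of the gene in lower case, and capitals mark the CpGs with a kept value. Among the 12 members with a kept cytosine of known context, 11 held a kept CpG inside CCGG, the site that MspI cuts, as the ends of several of these stretches show.
Soga3, chr10:28916811-28916921, plus strand: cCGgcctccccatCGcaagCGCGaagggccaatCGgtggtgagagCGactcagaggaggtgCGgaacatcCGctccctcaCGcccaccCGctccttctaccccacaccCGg
Usp44, chr10:93308700-93308847, plus strand: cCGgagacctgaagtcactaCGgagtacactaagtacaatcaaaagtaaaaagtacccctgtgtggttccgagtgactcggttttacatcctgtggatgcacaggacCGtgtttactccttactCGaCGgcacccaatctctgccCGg
Mex3d, chr10:79845005-79845071, minus strand: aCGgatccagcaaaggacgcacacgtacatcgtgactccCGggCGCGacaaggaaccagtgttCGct
Spred2, chr11:19920794-19920885, plus strand: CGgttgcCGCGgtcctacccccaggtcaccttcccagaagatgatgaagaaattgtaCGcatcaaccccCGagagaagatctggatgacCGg
Mapt, chr11:104159814-104159982, plus strand: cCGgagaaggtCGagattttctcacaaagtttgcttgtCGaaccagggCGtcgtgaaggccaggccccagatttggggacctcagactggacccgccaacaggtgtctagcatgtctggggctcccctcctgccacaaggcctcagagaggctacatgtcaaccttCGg
Gm30671, chr9:44418672-44418725, minus strand: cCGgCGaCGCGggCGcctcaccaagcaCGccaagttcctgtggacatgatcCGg
Gm8888, chr15:96597356-96597423, minus strand: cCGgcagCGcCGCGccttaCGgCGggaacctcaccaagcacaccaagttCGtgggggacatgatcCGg

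The libraries that chose the members are given first, as a description. Over the embryo-methylated cytosines the members averaged 15.4% ± 8.31 (SD over 25 regions) in early ESC and 15.3% ± 6.67 in early ahESC. The corresponding levels were 92.5% ± 5.36 in the WT embryo, 91.1% ± 6.42 in the BM embryo and 91.0% ± 4.80 in the BP embryo. Single members ran from 0.244% to 27.7% in the 2 stem cell libraries and from 72.9% to 97.9% in the embryos. Since the unmethylated cytosines outside CpG lower a tile mean, 11 of the 25 members exceeded 20% in at least 1 of the early stem cell libraries once these were left out.

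The limits of the rule cut through a continuous range of tile means. The 3 members nearest the stem cell limit had a higher early stem cell tile mean of 19.47%, 19.82% and 19.97%, and the 3 nearest tiles outside it had 20.0042%, 20.0135% and 20.0145%. At the embryo limit, the lowest of the 3 embryo tile means was 60.1%, 60.2% and 60.7% just inside, and 59.95%, 59.6% and 58.9% just outside. In all, 1161 tiles were at 60% or more in all 3 embryos, and 725 of these were also at 60% or more in both early stem cell libraries.

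The 7 libraries outside the rule fell into the same 2 classes. In the E19.5 BM brain the tile mean was 60% or more in all 24 members with a value, against 1.38% of all tiles. The adult BM brain reached it in 16 of 19 members (1.34% of all tiles) and the adult WT brain in 18 of 21 (1.22% of all tiles). Over embryo-methylated cytosines the means were 94.5% ± 3.87 in the E19.5 brain (24 regions), 87.1% ± 10.9 in the adult BM brain (19 regions) and 89.6% ± 6.80 in the adult WT brain (20 regions). High levels in brain are not particular to these regions: of the 725 tiles high in all 5 libraries of the rule, 98.2% were at 60% or more in the E19.5 brain.

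The 4 stem cell libraries outside the rule were low. Early phESC had a tile mean of 20% or less in 20 of 22 members, against 83.8% of all tiles. The counts were 22 of 22 in late ESC (93.6% of all tiles), 20 of 21 in late ahESC (87.8%) and 19 of 19 in late phESC (95.3%), shares that lie near those of all tiles. Over embryo-methylated cytosines the means were 10.8% ± 7.82 in early phESC (22 regions), 5.98% ± 3.94 in late ESC (22 regions), 10.7% ± 7.14 in late ahESC (21 regions) and 10.6% ± 7.79 in late phESC (18 regions). Among the libraries outside the rule alone, 24 members had a stem cell and a tissue value over these cytosines, and in all 24 the lowest tissue value lay above the highest stem cell value. The cytosines themselves were picked for their level in the embryos.

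**Figure D2:**
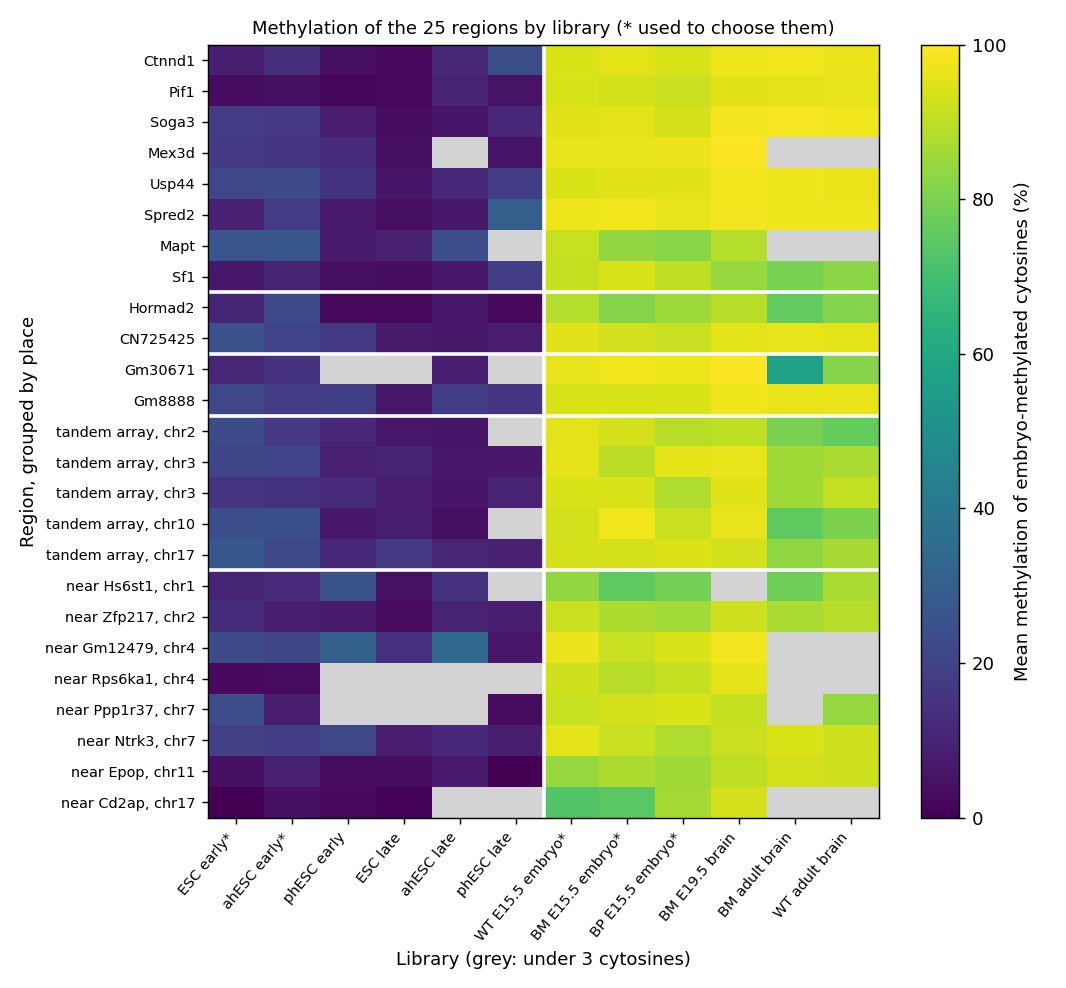
Rows are the 25 regions grouped by place (exons, gene starts, pseudogenes, tandem arrays, outside placed exons) and columns are the 12 libraries. The colour gives the mean methylation in percent over embryo-methylated cytosines, with grey for under 3 cytosines. The 6 stem cell columns stay at 34.2% or less and the 6 tissue columns at 57.4% or more.

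Early phESC and the E19.5 BM brain are a stem cell and a tissue that the rule did not use. The tile mean was higher in the brain by 25 points or more in 21 of 21 members with a value in both, against 8.13% of all tiles. The members averaged 7.74% in early phESC and 70.5% in the brain, a difference of 62.8 points ± 6.92 (SD over regions), and the median over all tiles was 9.02 points. Over embryo-methylated cytosines the difference was 84.3 points ± 6.90 in the 21 members, with values from 67.4 to 93.9. In 562 tiles high in all 5 libraries of the rule it was 34.7 points ± 10.6, and early phESC stood at 60.4% there, against 10.1% in the members.

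In most members ESC and ahESC were lower at late passage, while phESC was higher in about as many members as it was lower. Over the same cytosines, late ESC was below early ESC in 21 of 22 members, by a mean of 10.2 points, from 16.2% to 5.98%. None fell by 25 points, which only a level over 25% allows, and 5.25% of all tiles fell by that much in tile mean. Tiles high in all 5 libraries of the rule were lower in late than in early ESC in 587 of 587, by a mean of 41.3 points. Late ahESC was below early ahESC in 16 of 21 members. In the tiles high in all 5 libraries of the rule it was lower in 520 of 521, with a mean difference of -34.1 points. In some members the late ahESC level was raised at CpGs in CCGG. Pif1 had 32.3% and 34.3% there and 0.610% to 2.44% at its other CpGs, and Soga3 25.1% and 26.1% against 2.03% to 7.19%. At Mapt, with 36.4% in CCGG, another CpG had 39.1%. The late ahESC means and counts include these cytosines, and their effect was not tested. Late phESC was above early phESC in 9 and below it in 8 of 17 members, with a mean difference of 1.31 points ± 10.9 and values from -19.6 to 23.8. These members averaged only 9.65% in early phESC, which leaves little room for a fall. In the tiles high in all 5 libraries of the rule, late phESC was lower in 311 of 384, with a mean difference of -9.05 points ± 11.6. Late ahESC, late phESC and both adult brains had a tile mean in 19 to 21 members, against 22 to 24 in early phESC, late ESC and the E19.5 brain, so their values rest on fewer regions.

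**Figure D3:**
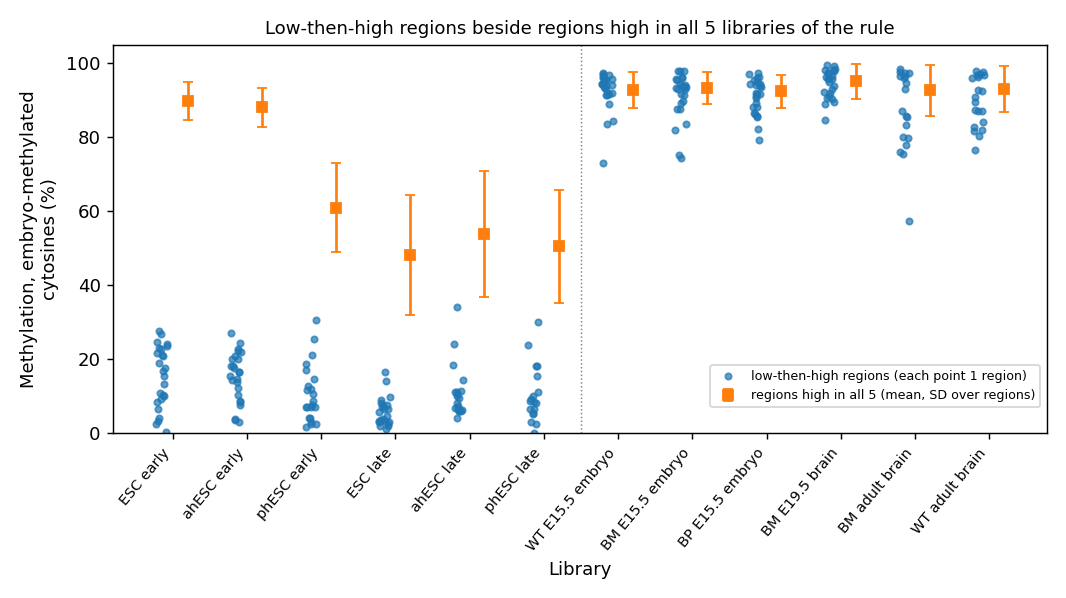
Blue points are the 25 regions and orange squares are the mean of the 725 tiles high in all 5 libraries of the rule, with SD over tiles, for each of the 12 libraries. Both sets are near 90% in the tissues. In the stem cells the regions lie at 34.2% or less, while the other set falls from 89.8% in early ESC to 48.1% in late ESC.

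The rule asked for 60% or more in all 3 embryos, which limits how far apart the embryo types can lie, and the values between them are a description from which nothing is read. The BM embryo was higher than the WT embryo in 12 members and lower in 13, with a mean difference of -1.42 points ± 3.59. The BP embryo was higher in 8 and lower in 17, with a mean difference of -1.54 points ± 4.43. No member moved by 25 points in tile mean in either comparison, a count that the rule nearly fixes, and 0.00615% of all tiles were higher and 0.00154% lower in BM, and 0.0246% were higher and 0.0108% lower in BP. The adult WT brain was above the adult BM brain in 14 of 19 members, by a mean of 2.44 points ± 3.15, and no member differed by 25 points (0.047% of all tiles higher, 0.0769% lower). With 1 library a type, a difference between animals cannot be told apart from one between embryo types.

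Of the 25 members, 8 lay inside exons of protein-coding genes, with the kept cytosines in the coding sequence of at least 1 annotated transcript. The exception is Spred2, where 14 of 18 were in the exon and the others just before it. Tiles overlapping a placed exon made up 48% of the members, counting 2 pseudogenes and 2 gene starts, and 30.9% of all tiles. Only some exons could be placed on mm9, so both shares are lower limits. Over these 8 exons the mean was 13.8% ± 8.14 in early ESC and 94.4% ± 2.16 in the WT embryo.

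Soga3, a gene named for its likeness to a suppressor of glucose by autophagy, held the most kept cytosines (29, of which 19 were embryo-methylated). Its exon stretch, the first of the sequences above, had 17.5% in early ESC, 16.5% in early ahESC, 7.65% in early phESC, 3.34% in late ESC, 6.14% in late ahESC and 11.2% in late phESC. The tissues had 95.4% in WT embryo, 95.8% in BM embryo, 93.4% in BP embryo, 98.2% in E19.5 BM brain, 98.5% in adult BM brain and 98.0% in adult WT brain. The mean exceeded 90% in all 6 tissue libraries and stayed under 20% in all 6 stem cell libraries, with 17 of the 19 cytosines measured in late phESC.

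Ctnnd1 encodes p120-catenin, which binds cadherins at cell junctions, and its member tile (chr2:84464001-84465000) held 23 kept cytosines within 53 bp. This exon is coding in some transcripts and untranslated in others, and the readthrough gene Gm28635 shares it. The stem cell levels were 8.34% in early ESC, 13.98% in early ahESC, 4.10% in early phESC, 2.56% in late ESC, 11.4% in late ahESC and 23.9% in late phESC. The tissue levels were 94.4% in WT embryo, 95.9% in BM embryo, 93.9% in BP embryo, 97.4% in E19.5 BM brain, 97.7% in adult BM brain and 97.1% in adult WT brain. Late phESC was the highest of the stem cells here, as it also was in Spred2 and Sf1. At Ctnnd1 its values differed between the 2 strands of a CpG, as with 9.86% at 84464492 and 34.6% at 84464493. Early ahESC had 11.2% and 13.9% at these positions, so the high late phESC mean at Ctnnd1 comes from 1 strand.

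Pif1, a DNA helicase that unwinds G-quadruplexes, had the lowest early ESC and early ahESC levels among the exons (chr9:65441001-65442000). Its stem cell levels were 3.44% in early ESC, 3.70% in early ahESC, 1.79% in early phESC, 2.09% in late ESC, 9.66% in late ahESC and 5.29% in late phESC. Its tissue levels were 94.0% in WT embryo, 93.6% in BM embryo, 91.9% in BP embryo, 95.7% in E19.5 BM brain, 96.0% in adult BM brain and 96.3% in adult WT brain. Usp44, a deubiquitinase of the mitotic checkpoint (chr10:93308001-93309000), had 21.6% in early ESC, 22.8% in early ahESC, 14.8% in early phESC, 5.64% in late ESC, 11.1% in late ahESC and 18.2% in late phESC. In tissue Usp44 had 94.3% in WT embryo, 95.5% in BM embryo, 95.6% in BP embryo, 98.0% in E19.5 BM brain, 97.4% in adult BM brain and 96.8% in adult WT brain, so that the 2 exons differed in the early stem cells and hardly in the tissues.

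Spred2 inhibits Ras-MAPK signalling, and its member covers the start of its last exon (chr11:19920001-19921000). The stem cells had 9.14% in early ESC, 17.6% in early ahESC, 7.07% in early phESC, 3.59% in late ESC, 6.84% in late ahESC and 30.1% in late phESC. The tissues had 97.3% in WT embryo, 97.8% in BM embryo, 96.2% in BP embryo, 98.4% in E19.5 BM brain, 97.4% in adult BM brain and 97.6% in adult WT brain. The late phESC value was the highest that this library gave in any member, and it rests on 5 of the 12 embryo-methylated cytosines.

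Mapt encodes the microtubule-binding protein tau of neurons, and its member (chr11:104159001-104160000) was among those nearest to both limits of the rule. The stem cells had 26.8% in early ESC, 27.0% in early ahESC, 7.07% in early phESC, 8.90% in late ESC and 24.1% in late ahESC. The tissues had 91.5% in WT embryo, 83.7% in BM embryo, 82.3% in BP embryo and 88.9% in E19.5 BM brain, with too few cytosines in either adult brain. Early ESC and early ahESC were thus higher at Mapt than at the other 7 exons.

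Mex3d, an RNA-binding protein, had 5 embryo-methylated cytosines (chr10:79845001-79846000), 1 of which also lies in the annotated miRNA gene Gm22721. The Mex3d tile lies 269 bp from a placed Mex3d start, but it has no placed promoter sequence within 1 kb and is counted with the exons. Its stem cell levels were 16.9% in early ESC, 15.6% in early ahESC, 12.8% in early phESC, 3.88% in late ESC and 5.56% in late phESC. Its tissue levels were 96.7% in WT embryo, 96.2% in BM embryo, 97.2% in BP embryo and 99.3% in E19.5 BM brain. Sf1, a splicing factor that recognises the branch point of introns, had 6.60% in early ESC, 10.3% in early ahESC, 4.14% in early phESC, 3.17% in late ESC, 6.62% in late ahESC and 18.2% in late phESC in its exon (chr19:6375001-6376000). In tissue Sf1 had 91.4% in WT embryo, 93.9% in BM embryo, 90.6% in BP embryo, 84.7% in E19.5 BM brain, 79.8% in adult BM brain and 82.7% in adult WT brain, the lowest brain levels among the exons.

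Hormad2, a protein of meiotic chromosome axes, was the 1 member at a gene of the 8 lists examined, which cover pluripotency, germline, 2-cell-like, methylation machinery, trophoblast, neural, developmental and blood genes. Its kept cytosines lie in the untranslated part of the first exon (chr11:4340001-4341000). The stem cells had 10.2% in early ESC, 22.1% in early ahESC, 2.54% in early phESC, 2.09% in late ESC, 6.39% in late ahESC and 2.44% in late phESC. The tissues had 89.0% in WT embryo, 81.9% in BM embryo, 85.4% in BP embryo, 89.4% in E19.5 BM brain, 76.1% in adult BM brain and 81.5% in adult WT brain. Early ahESC was the highest stem cell library at Hormad2, and the BM and BP embryos were within 10 points of the WT embryo.

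CN725425, an expressed sequence with no role assigned here, was the other member at a gene start (chr15:91030001-91031000), which here means a placed promoter sequence within 1 kb. Its stem cells had 24.7% in early ESC, 19.9% in early ahESC, 17.2% in early phESC, 7.06% in late ESC, 6.26% in late ahESC and 8.18% in late phESC. Its tissues had 95.5% in WT embryo, 93.2% in BM embryo, 91.7% in BP embryo, 95.8% in E19.5 BM brain, 96.5% in adult BM brain and 95.9% in adult WT brain. The sequences upstream of both starts are printed because the CpGs there gave different levels in the 2 genes. They come from the RefSeq promoter table (GRCm38.p6) without annotated exon bases, were placed on mm9 in the same way, and carry capitals at CpGs that the deposited table lists.
Hormad2, chr11:4341109-4341335, minus strand: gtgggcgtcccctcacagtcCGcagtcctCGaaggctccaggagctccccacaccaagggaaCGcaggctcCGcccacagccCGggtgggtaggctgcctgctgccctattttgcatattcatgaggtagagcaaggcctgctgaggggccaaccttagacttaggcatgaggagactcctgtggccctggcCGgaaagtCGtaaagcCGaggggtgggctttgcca
CN725425, chr15:91029627-91029924, plus strand: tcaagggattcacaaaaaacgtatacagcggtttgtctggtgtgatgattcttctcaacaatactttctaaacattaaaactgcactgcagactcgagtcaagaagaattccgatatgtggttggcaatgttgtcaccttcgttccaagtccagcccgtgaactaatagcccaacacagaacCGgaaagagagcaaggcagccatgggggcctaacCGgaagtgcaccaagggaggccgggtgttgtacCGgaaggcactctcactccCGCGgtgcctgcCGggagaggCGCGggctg

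Upstream of Hormad2 the listed CpG cytosines averaged 3.94% in early ESC and 6.46% in early ahESC. They reached 26.4% in the WT embryo, 44.7% in the BM embryo, 50.04% in the BP embryo and 63.5% in the E19.5 BM brain (7 cytosines). The member's 9 cytosines in the first exon had 89.0%, 81.9%, 85.4% and 89.4% in these tissues. The rule chose that tile for high embryo levels, so nothing is read from the difference. Over 36 cytosines within 500 bp of the start that reached 20% in a library outside the rule, Hormad2 had 6.19% in early ESC and 58.9% in the WT embryo. This wider window did not meet the limits of the rule. Upstream of CN725425 the 5 cytosines averaged 11.0% in early ESC and 95.4% in the WT embryo, and its member had 24.7% and 95.5%. The adult brains had 77.3% in BM and 76.8% in WT upstream, over 15 cytosines, and 96.5% and 95.9% in the member. The E-box CACGTG, searched on both strands (it is its own reverse complement), occurs in neither stretch, and 7.15% of the 32851 promoter windows of the table hold it.

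Starts of other listed genes were compared over cytosines within 500 bp that reached 20% in a library outside the rule. Of 32 germline starts with 5 or more such cytosines, out of 55 listed, 23 were higher in the WT embryo than in early ESC by 25 points or more, against 13% of all 5659 starts measured. Their median difference was 42.9 points and that of all starts 2.83 points. The counts were 2 of 9 for pluripotency and 2 of 7 for methylation machinery, and 0 for the trophoblast (7), neural (5), developmental (8) and blood (4) lists. Early phESC and the E19.5 BM brain, which the rule did not use, give the counts in another pair. There 28 of 32 germline starts were higher in the brain by 25 points or more, against 47.6% of all starts. The other counts were 3 of 9 for pluripotency, 4 of 7 for methylation machinery, 1 of 7 for trophoblast, 2 of 5 for neural, 0 of 8 for developmental and 3 of 4 for blood genes. The cytosines compared were chosen for reaching 20% in a library outside the rule, these 2 among them, which can raise the counts of this pair. No 2-cell-like start could be measured. Under the limits of the rule, 4 germline starts were low and then high: Ddx4, an RNA helicase of germ cells, Dmrtb1, a regulator of the switch from mitosis to meiosis, Tex14, needed for bridges between germ cells, and Zp3, of the egg coat. Of the 7 methylation machinery starts 1 met them too, that of Mbd3. No measured start of the pluripotency, trophoblast, neural, developmental or blood lists did. In all, 1.56% of starts met these limits.

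Gm30671 and Gm8888 are processed pseudogenes on chr9 and chr15. Both resemble the mRNA of Rpl36, a protein of the large ribosomal subunit, with 91.2% identity over 319 aligned bases and 83.0% over 329. They share 79.9% with each other. Gm30671 had 10.7% in early ESC, 14.6% in early ahESC and 8.23% in late ahESC. Its tissues had 96.7% in WT embryo, 97.9% in BM embryo, 97.4% in BP embryo, 99.5% in E19.5 BM brain, 57.4% in adult BM brain and 81.8% in adult WT brain. The adult BM brain was the one tissue value under 60% among all members, and it rests on 5 of the 12 embryo-methylated cytosines, which ran from 0% to 76.6%. The adult WT mean rests on all 12, so the 2 means cover different cytosines. Where BM had 0% the adult WT brain had 30.2%, and at the rest of those 5 cytosines it had 73.5% to 76.1%.

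Gm8888 had 21.2% in early ESC, 18.2% in early ahESC, 18.7% in early phESC, 6.58% in late ESC, 18.3% in late ahESC and 15.54% in late phESC. Its tissues had 94.0% in WT embryo, 94.0% in BM embryo, 94.2% in BP embryo, 97.4% in E19.5 BM brain, 96.5% in adult BM brain and 96.7% in adult WT brain. In contrast to Gm30671, the adult brains were at the level of the embryos.

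Since 2 members resemble Rpl36, its other placed copies were examined over CpG cytosines with a value in the 5 libraries of the rule. This family was picked after the members were seen. Of 30 genes that share at least 40 words of 14 bases with the Rpl36 mRNA, 17 pseudogenes in 18 exons had 3 or more such cytosines. In the embryos, 17 of the 18 exons were at 60% or more in all 3, with a median of 94.0% in the WT embryo. Early ESC spread from 7.70% to 94.9% (median 48.8%), while the WT embryo ran from 39.8% to 98.8%. Low and then high over these CpGs were 2 of the 18, Gm30671 and Rpl36-ps3, while Gm8888 was at 21.2% in early ESC. Over embryo-methylated cytosines 1.98% of all tiles met these limits. Gm30671 is a member that the rule chose for this pattern, so nothing is read from the count. Rpl36-ps8 had 7.70% in early ESC and 39.8% in the WT embryo.

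The 3 measured exons of Rpl36 itself had 1.73%, 1.42% and 0.499% in early ESC and 1.63%, 2.27% and 1.05% in the WT embryo. The parent gene and its copies thus lay apart in both. How reads matching several copies were treated is not given in the sources used here. Rpl36-ps12 is 99.2% identical to the mRNA over 375 bases and had 53.5% in early ESC and 94.98% in the WT embryo, and Gm13611, at 98.4% identity, had 63.4% and 84.6%.

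**Figure D4:**
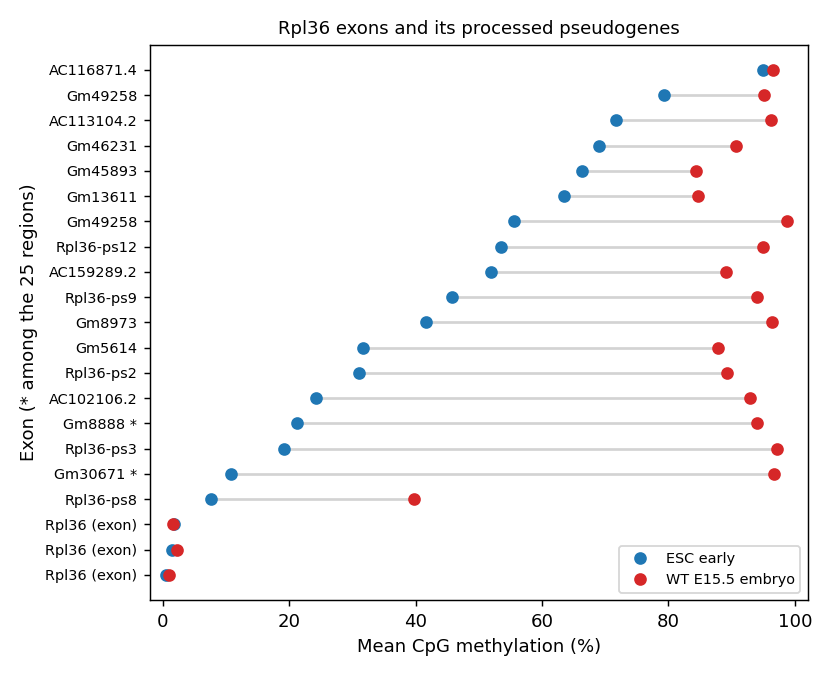
Each row is 1 exon of Rpl36 or of a processed pseudogene of it, ordered by early ESC, with the mean CpG methylation in percent in early ESC (blue) and in the WT E15.5 embryo (red). The 3 Rpl36 exons lie at or below 2.27% in both, and early ESC runs from 7.70% to 94.9% over the pseudogene exons.

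In 5 members the kept cytosines lay in tandem arrays, where the listed positions recur at a distance of 212 bp. This was read from the positions alone: within 3 kb around the tile, 60 or more positions had to be listed and 40% or more of them to have another listed position at that distance. The members are chr2:63444001-63445000, chr3:120445001-120446000, chr3:157765001-157766000, chr10:65126001-65127000 and chr17:33415001-33416000. Their shares were 43.8%, 68.5%, 45.1%, 53.8% and 62.2%, while at the median distance they were between 10.6% and 15.8%. The distance of 212 bp was itself taken from the members, as the most common one among those within these limits. Arrays at this distance made up 20% of the members and 0.236% of all tiles, a contrast that this choice can raise. Arrays with other distances were not counted. No sequence is printed for them.

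The 5 array members were alike. They averaged 22.2% ± 4.48 in early ESC, 19.51% ± 4.06 in early ahESC, 9.96% ± 2.10 in early phESC, 9.78% ± 4.03 in late ESC and 6.67% ± 2.37 in late ahESC. In tissue they averaged 94.6% ± 1.27 in the WT embryo, 93.7% ± 2.88 in the BM embryo, 92.0% ± 3.44 in the BP embryo and 94.3% ± 2.57 in the E19.5 brain. The adult brains were lower, at 82.0% ± 4.26 in BM and 84.4% ± 5.88 in WT, and the array on chr10 was the lowest in BM with 75.6%. Exon members with a value there averaged 94.5% ± 7.22 in the adult BM brain.

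In each array, 1 cytosine was far below the others in the adult BM brain. Its level there was 48.5% on chr2, 56.3% and 37.7% on chr3, 18.95% on chr10 and 18.0% on chr17. The other measured cytosines of these members were all at 91.0% or more, and without the lowest one the adult BM means were between 94.4% and 97.6%. At the same 5 positions the adult WT brain had 55.5%, 71.4%, 69.8%, 29.8% and 39.9%, while the E19.5 BM brain had 95.4% or more. Each of the 5 positions lay 7 bp from the nearest other embryo-methylated cytosine. They were picked as the lowest in 1 library, and the adult BM value on chr2 rests on 3 cytosines. On chr2 a second cytosine was low in the adult WT brain (47.6%).

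All arrays of this kind, the 5 members included, spread widely in the stem cells. Among 272 array tiles with 3 or more embryo-methylated cytosines, the mean was 25.9% ± 17.0 in early ESC and 89.8% ± 6.92 in the WT embryo, where the choice of cytosines that reach 20% in an embryo can raise the level. Of these tiles 108 were at 20% or less in both early stem cell libraries and 60% or more in all 3 embryos, against 1.98% of 71305 tiles of any kind measured that way, and 162 were over 20% in an early stem cell library. Copies of 1 repeat can share reads, so these tiles may not be separate measurements, which was not tested.

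Another 8 members overlapped no placed exon and no array. The nearest placed gene start was that of Epop, an elongin and Polycomb-associated protein, at 4985 bp from chr11:97496001-97497000. That tile had 4.17% in early ESC, 8.61% in early ahESC, 3.15% in early phESC, 3.28% in late ESC, 7.41% in late ahESC and 0% in late phESC. In tissue it had 84.4% in WT embryo, 87.5% in BM embryo, 85.8% in BP embryo, 90.5% in E19.5 BM brain, 93.0% in adult BM brain and 92.4% in adult WT brain. It was 1 of 6 members with a placed start within 5 kb (24%), and 32.1% of all tiles have one.

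The member chr17:43021001-43022000, at 7387 bp from the start of Cd2ap, an adaptor of the actin cytoskeleton, had the lowest early ESC level. It had 0.244% in early ESC, 3.97% in early ahESC, 2.46% in early phESC and 1.10% in late ESC. Its tissues had 72.9% in WT embryo, 74.3% in BM embryo, 86.6% in BP embryo and 93.7% in E19.5 BM brain, so the WT and BM embryos were below the BP embryo and the brain. The member chr4:133455001-133456000, 11289 bp from the start of the kinase gene Rps6ka1, had 2.42% in early ESC and 3.12% in early ahESC. Its measured tissues had 92.9% in WT embryo, 89.3% in BM embryo, 91.0% in BP embryo and 95.9% in E19.5 BM brain.

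The member chr7:20130001-20131000 lay between placed exons of Ppp1r37, a regulatory subunit of a protein phosphatase. It was the member in which the 2 early stem cell libraries differed most, with 23.4% in early ESC, 7.64% in early ahESC and 3.16% in late phESC. The tissues had 91.8% in WT embryo, 93.0% in BM embryo, 94.4% in BP embryo, 91.1% in E19.5 BM brain and 84.2% in adult WT brain. At chr4:54833001-54834000, 32000 bp from the start of Gm12479, the stem cells had 23.1% in early ESC, 20.9% in early ahESC, 30.6% in early phESC, 14.2% in late ESC, 34.2% in late ahESC and 6.61% in late phESC. The tissues had 97.0% in WT embryo, 91.4% in BM embryo, 94.3% in BP embryo and 98.1% in E19.5 BM brain, and the late ahESC value was the highest of any stem cell library in the 25 members.

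The remaining 3 members were far from placed starts. The tile chr1:36075001-36076000, 49245 bp from Hs6st1, a sulfotransferase of heparan sulfate, had 10.2% in early ESC, 12.2% in early ahESC, 25.6% in early phESC, 4.55% in late ESC and 14.5% in late ahESC. Its tissues had 83.6% in WT embryo, 75.1% in BM embryo, 79.2% in BP embryo, 77.9% in adult BM brain and 87.1% in adult WT brain. The tile chr2:169920001-169921000, 35720 bp from the zinc finger gene Zfp217, had 13.2% in early ESC, 8.55% in early ahESC, 7.05% in early phESC, 3.02% in late ESC, 10.1% in late ahESC and 8.58% in late phESC. Its tissues had 91.8% in WT embryo, 87.7% in BM embryo, 86.1% in BP embryo, 92.3% in E19.5 BM brain, 87.1% in adult BM brain and 89.4% in adult WT brain. The tile chr7:85019001-85020000, 703294 bp from Ntrk3, a neurotrophin receptor, ran from 7.71% in late ESC to 21.2% in early phESC and, in tissue, between 88.1% (BP embryo) and 95.8% (WT embryo).

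No 2 members adjoined or lay within 5 kb of each other. Within 2 kb, 14 members had a neighbouring tile with 3 or more embryo-methylated cytosines, 18 tiles in all. Of these, 16 were at 60% or more in all 3 embryos, and 10 of the 16 were over 20% in an early stem cell library. The other 6 met both limits of the rule over these cytosines, and 1.98% of 71305 tiles of any kind did when measured that way. In each of the 6 the member's kept cytosines reach close to the tile edge that faces the neighbour. On chr2 the first lies at 169920001 and on chr11 the last at 97497000. Such neighbours can hold the rest of the stretch that was chosen, so nothing is read from the contrast. Among these 6, the tile before the CN725425 member had 14.2% in early ESC and 93.5% in the WT embryo. The tile after the Spred2 member had 41.1% in early ESC and 96.4% in the WT embryo, the one after the Mapt member 36.3% and 78.5%, and the one after the Pif1 member 42.7% and 92.2%. Next to Hormad2 the neighbour was low in ESC and intermediate in the embryo, with 4.85% and 48.8%.

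By distance from the centre of the kept cytosines, early ESC averaged 15.1% within 250 bp (25 regions), 35.0% at 250 to 500 bp (3 regions) and 60.3% at 1000 to 2000 bp (3 regions). The WT embryo averaged 90.1%, 88.1% and 86.5% at the same distances. Few members have cytosines beyond 250 bp, and the rule chose the centre for its low stem cell level, so these values describe the surroundings and give no trend.

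**Figure D5:**
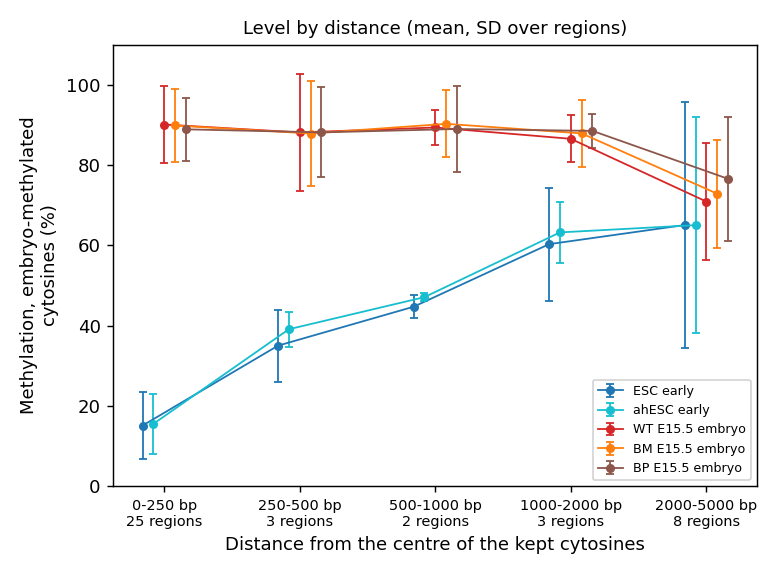
Points are means over regions, with SD, of embryo-methylated cytosines by distance from the centre of the kept cytosines (x axis, with the number of regions) for the 5 libraries of the rule (y axis, percent). Early ESC is at 15.1% within 250 bp of the centre and at 60.3% at 1000 to 2000 bp, where 3 regions have a value.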

How the data were processed

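Per the submitters' processing notes, the tools were Trim Galore and Bismark 0.13.1 and the build was mm9. The authors deposited 1 table with a methylation level from 0 to 100 percent per cytosine and library, with N where missing. Options, filters and read depth are not given in the sources used here, and 7811806 listed positions on autosomes were read. Depth sets the precision of each value and is unknown.

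The members and gene lists were chosen with earlier results of these data known. Tile means were computed with pandas 2.3.3 and NumPy 2.4.6, with 3 or more kept cytosines per tile and library for the libraries outside the rule, and 25 points as the size of a call between libraries. There is no test, since each group is 1 library. The tile functions were tested on simulated data. Since there were 30 or fewer members, all are named.

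No mm9 genome was used. Exons of GENCODE M21 and RefSeq promoters were placed where their CpG and GC positions matched 8 or more listed positions with no mismatch, at a shift that 5 or more sequences of the chromosome share. Of 458834 sequences 95700 were placed. No coordinate was converted, and CDS and UTR are those of the placed transcript. Rpl36 copies were aligned with Biopython 1.88.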

Additional observations from a re-analysis of the deposited data

How the results depend on the processing

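Of 60 values recomputed under alternatives, 47 moved by less than the spread over regions or by less than 1.5 times for a count, and 13 moved by more. The number of members depended on every choice tried except the grid: it was 25 as reported, 19 with tiles shifted by 500 bp, 13 with a minimum of 10 cytosines, 2 with limits of 10% and 70%, 230 with limits of 30% and 50%, and 213 by the tile median. Restricting tiles to cytosines that can be methylated gave more: 995 of 47238 tiles over cytosines that reach 20% in a library outside the rule, 292 of 23154 over CpG outside CCGG where the context is known, and 1005 of 42096 over cytosines that reach 20% in an embryo, an alternative chosen after seeing the data. These hold 12 of the 20, 7 of the 9 and 12 of the 21 members that could be measured that way. Over the embryo-methylated cytosines, the tile means of 71.7%, 64.3% and 66.7% in the E19.5 BM brain, adult BM brain and adult WT brain became 94.5%, 87.1% and 89.6%, and over every listed cytosine the adult brains had 50.6% and 53.8%. Members at a gene fell from 14 to 5 with a start within 1 kb in place of a gene body (an exon or between exons) or a start within 5 kb. No paired analysis was possible because each group is 1 library. Read depth is unknown and limits every level by an unknown amount.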

Other observations

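Over cytosines that reach 20% in a library outside the rule, 995 tiles were at 20% or less in both early stem cell libraries and 60% or more in all 3 embryos, and 376 of them overlapped a placed exon or promoter. In this wider set 8 tiles lay at listed genes. They were at Ddx4, Sohlh2, Sycp1, Tex14 and Zp3 of the germline list, Gdf3 (a ligand of the TGF-beta family) of the pluripotency list, Gata3 of the trophoblast list and Mbd3, a subunit of the NuRD complex, of the methylation machinery list. No share over all tiles was computed for the 376 or the 8, so nothing is read from these counts. The Gdf3 and Gata3 tiles did not lie at a placed start. Around its start Gdf3 had 1.33% in early ESC and 39.8% in the WT embryo, outside the limits of the rule. Tex14 had 6.50% in early ESC, 4.02% in early ahESC, 96.1% in the WT embryo, 94.9% in the BM embryo and 93.6% in the BP embryo. Mbd3 had 4.74% and 6.72% in the same stem cells and 93.4%, 91.7% and 92.4% in the embryos. Sohlh2, a transcription factor of germ cells, had 13.1% in early ESC and 90.5% in the WT embryo. Sycp1, of the synaptonemal complex, had 19.18% and 86.2%. The inverse pattern, 60% or more in both early stem cell libraries and 20% or less in all 3 embryos, occurred in 54 tiles under the same choice of cytosines.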
